A study of Mus musculus with 78 samples.

Results

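The genes described are 10 mouse genes whose RNA fell when the zinc finger transcription factor ZFP143 was removed and that carried a ZFP143 peak at their promoter: Usp40, Rbm41, Prmt6, Cldnd1, Ifrd2, Ifrd1, Pycard, Irf3, Zc4h2 and Vps50. They were chosen by measured values, namely a strong loss after depletion in the 3 gene count tables together with a peak of the ZFP143 list, so their losses, and the counts of calls given for them, are a description and support nothing. They are 10 of 55401 annotated genes and 10 of 2495 genes with a ZFP143 peak at an annotated start. The cells were E14TG2a, a mouse embryonic stem cell line, in which the label ZFP143-FKBP marks a degron fused to both copies of the endogenous Zfp143 gene. Every group carried this degron, controls included, and homozygous clones grown from single cells were used. DMSO was the vehicle control, and dTAG-V1 at 500 nM, the compound that sends the tagged protein for degradation, was the depletion treatment.

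Nascent RNA was measured by TT-seq (sequencing of RNA labelled for a short time before harvest, counted over whole genes) in DMSO cells and in cells given dTAG-V1 for 2, 6 or 24 h. Steady-state RNA was measured by RNA-seq, counted over exons, in DMSO cells and after 24, 48 and 72 h. In a further RNA-seq experiment, cells were given DMSO or dTAG-V1 for 24 h and were collected either then or after another 24 h in differentiation medium with retinoic acid (RA) and the same treatment, so that the depleted cells with RA had 48 h of depletion and a change of medium as well as RA. Contacts of chosen fragments were measured by 4C (sequencing of what is ligated to 1 restriction fragment) in DMSO cells and after 6 h of dTAG-V1. Each group of TT-seq, RNA-seq and 4C had 2 replicates, and no label ties a replicate to a separate day or batch. The ZFP143 peak list came from ChIP-seq (sequencing of DNA bound by a protein), which had 1 library per group, so peak heights have no replicate. Levels are given as CPM, the count of a gene scaled to the total of its library over the genes tested. That total was adjusted by TMM (a scaling factor per library), so CPM differs from the plain share of all counts. Since these are bulk samples, fewer cells of a type and less RNA per cell cannot be told apart.

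ZFP143 binds DNA through a row of zinc fingers and sits mostly at promoters close to the transcription start, where its long recognition sequence includes the letters ACTACA followed by CCCA. A factor of this kind acts on transcription, so its direct effect is read first in nascent RNA, while steady-state RNA also depends on how fast the transcript decays. The genes have no shared pathway: they encode enzymes of protein modification (Usp40, Prmt6), an RNA-binding protein (Rbm41), regulators of translation and transcription (Ifrd2, Ifrd1), innate immune signalling proteins (Pycard, Irf3), membrane and trafficking proteins (Cldnd1, Vps50) and a zinc finger protein with a role in neural development (Zc4h2).

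Each of the 10 genes had exactly 1 ZFP143 peak at its start, which the choice required. The choice did not use the height of the peak. It did limit the place, to a window from 2000 bp before to 1000 bp after a start. The enrichment over input was 140 at Ifrd2, 127 at Irf3 and 119 at Prmt6, which ranked 30, 49 and 62 of the 3189 peaks in the list. It was 75.1 at Ifrd1, 54.2 at Vps50, 53.5 at Cldnd1, 41.8 at Usp40, 36.9 at Pycard, 25.6 at Rbm41 and 16.2 at Zc4h2, and only the peak of Zc4h2 lay below the list's median of 20.8. Set beside the losses, on which the genes were chosen, Ifrd2, with the highest peak, had 5.03% of nascent RNA left after 24 h. Rbm41 and Zc4h2, with the lowest peaks, had 5.88% and 1.67%, and Irf3, with one of the highest, had 33.2%. The value for Zc4h2, a mean of the libraries, rests on 1 count. With both libraries pooled it was 1.48%, with a counting interval of 0.0369 to 8.54%. No relation between height and loss was tested. The summit lay within 50 bp of the annotated start at 7 genes, 108 bp inside Pycard, at -318 bp from Irf3 and 411 bp inside Ifrd1, counted there from a start internal to the gene. Over all 2495 genes with a peak at an annotated start, the median distance from summit to start was 79 bp, so closeness to the start is common among them. None of the 10 peaks overlapped a CTCF peak, against 6.93% of the ZFP143 list.

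The sequences under the peaks are shown because they differ in which part of the ZFP143 recognition sequence they hold. Both strands were searched for ACTACA, for CCCANNATG, and for a composite of ACTACA, then 3 bases of any kind, then CCCA, which contains the first motif. The composite was found in the peaks of 7 genes (Usp40, Rbm41, Cldnd1, Ifrd1, Irf3, Zc4h2 and Vps50) and in 29.7% of all ZFP143 peaks. CCCANNATG alone was found at Ifrd2 and Pycard, and only ACTACA at Prmt6, at -261.5 bp from the summit. In windows of 300 bases, from 250 before to 50 after the start, the composite was found at 6 of the 10 genes and in 1.69% of 32851 annotated promoters (RefSeq, GRCm38.p6), ACTACA at 6 and in 10.3%, and CCCANNATG at 2 and in 5.01%. The lines below give the composite match nearest the summit, or the CCCANNATG match where there was no composite, with 8 bases on either side, in the direction of the match, with the letters of the motif in capitals (GRCm38.p6, mm10).
Usp40, chr1:88008562-88008590, + strand, at -25 bp from the start and opposite to the gene: cagatgcgACTACActtCCCAgggtgcgt
Rbm41, chrX:139998607-139998635, - strand, at -26 bp: atcacattACTACActtCCCAgagttcca
Cldnd1, chr16:58727813-58727841, + strand, at -83 bp: cggagagaACTACAttcCCCAcaattcct
Vps50, chr6:3498306-3498334, - strand, at -62 bp and opposite to the gene: acttcagtACTACAtttCCCAagaagcag
Irf3, chr7:44997327-44997355, - strand, at -307 bp and opposite to the gene, inside an intron of Bcl2l12: aaattggaACTACAtctCCCAgcagactg
Zc4h2, chrX:95658491-95658519, + strand, at 4 bp in the first exon and opposite to the gene: cctctagaACTACAactCCCAgaaggcca
Ifrd1, chr12:40222780-40222808, + strand, at 395 bp, within the gene and opposite to it: aagaccgaACTACAagtCCCAccgcgccc
Ifrd2, chr9:107587514-107587538, - strand, at -116 bp and opposite to the gene: actatgtaCCCACAATGccctgcgt
Pycard, chr7:127993759-127993783, - strand, at 96 bp, in an untranslated stretch of an exon: gggggagtCCCAGCATGcccatcgg
The 7 composite sites fix 10 of 13 letters by definition, and those of Usp40 and Rbm41 are identical in all 13. A match is a run of letters and not a measured contact of the protein with these bases.

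**Figure D1:**
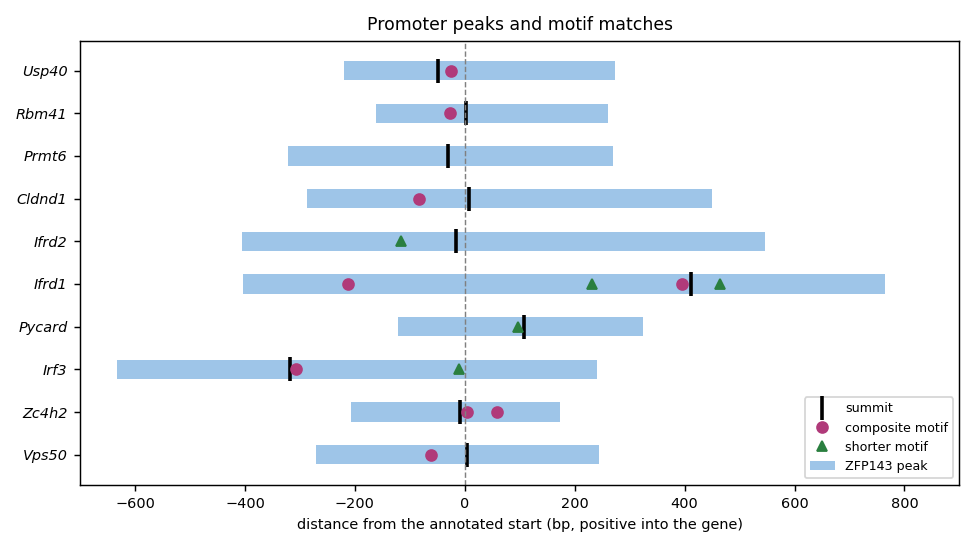
ZFP143 peaks (blue bars), their summits (black ticks), composite motif matches (circles) and CCCANNATG matches (triangles) at the 10 genes, by distance from the annotated start in bp. The summits of Irf3 and Ifrd1 sit farthest from the start, at -318 and 411 bp, and Prmt6 has neither motif under its peak.

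Usp40, at chr1:87945119-88008551 on the - strand, encodes a ubiquitin-specific protease, an enzyme family that removes ubiquitin from proteins. In nascent RNA it stood at 47.4 and 55.3 CPM in DMSO and at 1.27 and 1.51 CPM after 2 h. It then read 1.17 and 0.827 (6 h) and 0.590 and 1.06 (24 h). In steady-state RNA it stood at 19.2 and 21.4 CPM in DMSO, 0.242 and 0.182 at 24 h, 0.320 and 0.178 at 48 h, then 0.647 and 0.546 at 72 h. Between 1.05% and 2.94% of the DMSO level remained in both assays at every time, with 2.71% in nascent RNA already at 2 h.

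Rbm41, at chrX:139889511-139998595 on the - strand, encodes an RNA-binding protein of the minor spliceosome, which removes a rare class of introns. Nascent Rbm41 was at 23.2 and 37.3 CPM in DMSO, 1.04 and 1.33 at 2 h, 1.09 and 1.41 at 6 h, then 1.28 and 2.28 at 24 h, so 3.90% was left at the first time and 5.88% at the last. Steady-state Rbm41 was at 7.72 and 10.2 CPM in DMSO and at 0.0807 and 0.182 after 24 h, where both libraries together held 3 counts, a ratio of 1.41% with an exact 95% counting interval of 0.289 to 4.17%. At 48 h the libraries held 0.160 and 0 CPM, 2 counts in all, a ratio of 0.925% (0.111 to 3.38%), and at 72 h they held 0.278 and 0.341. The intervals cover counting error only.

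Prmt6, at chr3:110246109-110250998 on the - strand, encodes an arginine methyltransferase that marks histones among other proteins. Its nascent level went from 16.5 and 16.8 CPM in DMSO to 5.26 and 3.07 at 2 h, 3.51 and 3.06 at 6 h, then 2.46 and 3.88 at 24 h, or 25.0%, 19.7% and 19.0% of the control. Its steady-state level went from 27.4 and 28.6 CPM to 3.23 and 2.55 at 24 h, 4.00 and 3.03 at 48 h, then 6.75 and 6.55 at 72 h, or 10.3%, 12.5% and 23.7%. The steady-state level was thus lowest at 24 h and 48 h, whose libraries overlapped. The 72 h libraries lay above those of 24 h and 48 h while remaining below the control.

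Ifrd2 and Ifrd1 are related genes. Ifrd2, at chr9:107587642-107593385 on the + strand, encodes a protein found on ribosomes that are not translating, and Ifrd1, at chr12:40201567-40248504 on the - strand, encodes a transcriptional co-regulator. Nascent Ifrd2 fell stepwise from 35.9 and 38.6 CPM in DMSO to 6.14 and 5.78 at 2 h, 4.13 and 3.88 at 6 h, then 1.77 and 1.98 at 24 h, leaving 16.0%, 10.8% and 5.03%. Steady-state Ifrd2 was at 109 and 104 CPM in DMSO, the highest level per kilobase of the 10 genes, and at 4.44 and 4.47 at 24 h, 6.88 and 5.97 at 48 h, then 6.75 and 7.98 at 72 h. No library of one time shared its range with the DMSO libraries.

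Nascent Ifrd1 was at 148 and 191 CPM in DMSO, 59.0 and 63.4 at 2 h, 68.6 and 68.9 at 6 h, then 49.1 and 33.7 at 24 h. Its steady-state RNA went on falling between the later times, from 84.3 and 93.9 CPM to 45.4 and 40.05 at 24 h, 23.1 and 24.9 at 48 h, then 19.1 and 20.2 at 72 h. The steady-state share left was 47.9% at 24 h and 22.0% at 72 h, while nascent RNA was already at 36.1% after 2 h.

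Pycard, at chr7:127989708-127993867 on the - strand, encodes ASC, the adaptor that links inflammasome sensors to caspase-1. Its nascent level was low, at 5.28 and 4.27 CPM in DMSO, and went to 0.876 and 1.02 at 2 h, 0.624 and 0.496 at 6 h, then 0.295 and 0.760 at 24 h. Its steady-state level was much higher, at 39.1 and 38.5 CPM, and was at 1.69 and 1.37 at 24 h, 1.12 and 1.60 at 48 h, then 1.11 and 1.77 at 72 h, between 3.51% and 3.95% of DMSO. From 24 h on, the steady-state level stayed flat.

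Irf3, at chr7:44997648-45002848 on the + strand, encodes the transcription factor that turns on type I interferon genes after nucleic acids are sensed. What was left of it varied little between times: nascent Irf3 was at 7.45 and 9.75 CPM in DMSO, 3.11 and 2.77 at 2 h, 2.18 and 3.39 at 6 h, then 2.36 and 3.34 at 24 h. Steady-state Irf3 was at 34.6 and 33.9 CPM, then 10.5 and 9.76, 9.60 and 9.35, and 10.2 and 9.41 at 24, 48 and 72 h. Between 27.7% and 34.2% of the DMSO level was left at all 6 measurements, in nascent and in steady-state RNA alike.

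Cldnd1, at chr16:58727910-58734251 on the + strand, encodes a membrane protein with a claudin domain. Nascent Cldnd1 was at 7.03 and 8.61 CPM in DMSO, 1.91 and 2.05 at 2 h, 1.64 and 1.49 at 6 h, then 1.38 and 1.67 at 24 h. Steady-state Cldnd1 was at 44.7 and 46.5 CPM, afterwards 7.91 and 9.12 at 24 h, 9.52 and 9.53 at 48 h, then 11.2 and 13.5 at 72 h. The share left was close in the 2 assays at 24 h, 19.5% of nascent and 18.7% of steady-state RNA.

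Vps50, at chr6:3498382-3603531 on the + strand, encodes a subunit of EARP, a tether for vesicles that recycle from endosomes to the cell surface. Its nascent level was at 126 and 161 CPM in DMSO, 60.1 and 57.6 at 2 h, 75.3 and 69.4 at 6 h, then 70.2 and 65.9 at 24 h. Steady-state Vps50 went from 84.5 and 88.0 CPM to 45.5 and 37.0 at 24 h, 51.7 and 50.3 at 48 h, then 77.8 and 74.3 at 72 h. Its loss was the smallest of the 10 genes at every time except 24 h of steady-state RNA, where 47.9% was left of Vps50 and of Ifrd1 alike. At 72 h it stood at 88.1% of DMSO, although both libraries were still below both controls.

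Zc4h2, at chrX:95639193-95658509 on the - strand, encodes a zinc finger protein that partners the ubiquitin ligase RNF220. Nascent counts were few: 32 and 34 in DMSO, 5 and 3 at 2 h, 0 and 1 at 6 h, then 1 and 0 at 24 h. The single count at 6 h was 1.39% of the control (counting interval 0.0346 to 7.99%) and that at 24 h 1.48% (0.0369 to 8.54%). Steady-state counts were 127 and 191 in DMSO, 4 and 0 at 24 h, 1 and 2 at 48 h, then 1 and 1 at 72 h, where 0.615% was left (0.0742 to 2.24%). Its transcript was therefore near the limit of detection from 6 h of depletion on.

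**Figure D2:**
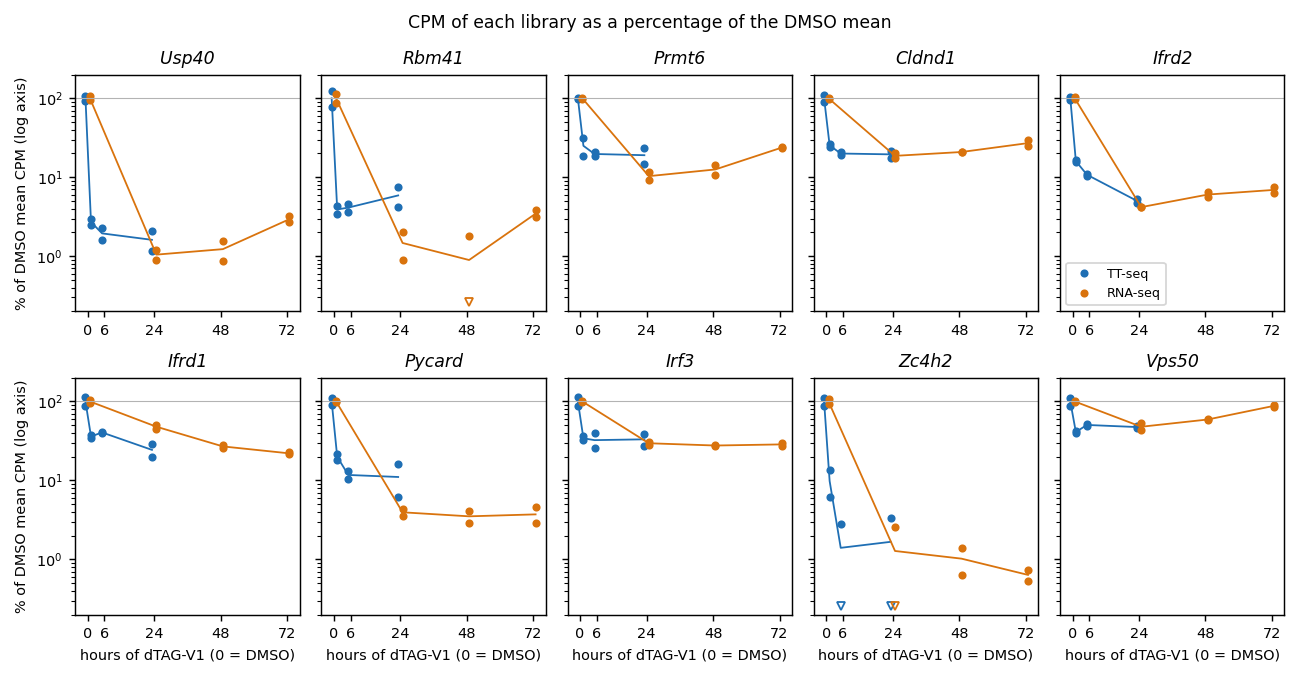
CPM of each library as a percentage of the DMSO mean (log axis) against hours of dTAG-V1, with 0 for DMSO; points are libraries, lines join means, blue is TT-seq, orange is RNA-seq, and open triangles mark libraries at 0. Nascent levels of all 10 genes are already down at 2 h, steady-state Ifrd1 goes on falling to 72 h, and steady-state Prmt6 and Vps50 are higher at 72 h than at 24 h.

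Counts were fitted with edgeR (quasi-likelihood) over the genes that exceeded 10 counts in 4 or more libraries of a table. In TT-seq, 9 of the 10 genes passed this filter (all but Zc4h2) and all 9 were called lower at 2, 6 and 24 h, where 2.43%, 2.83% and 4.09% of the 17870 genes tested were called lower (adjusted p under 0.05 and a log2 change beyond 0.5). In the RNA-seq time course 7 passed (not Usp40, Rbm41 and Zc4h2, which had too few counts once depleted), and 7, 6 and 6 were called lower at 24, 48 and 72 h, where 3.41%, 7.71% and 12.0% of 13925 genes were called lower (tested against a fold of 1.5, adjusted p under 0.01). Vps50 was the gene not called at 48 h (log2 change -0.76) and at 72 h (-0.19). The choice of the genes fixes these counts. The count at 2 h was 5 without the second DMSO library, 5 without the first 2 h library and 3 without the second, and the count at 6 h was 3 without either 6 h library. The median log2 change in nascent RNA over the 9 genes was -2.01 at 2 h, -2.34 at 6 h and -2.38 at 24 h, with all genes tested at 0.006, 0.010 and 0.008. It ran from -5.19 (Usp40) to -1.29 (Vps50) at 2 h.

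To see whether the nascent loss was complete at the first time, depleted times were set against each other in the same fit. Most of the loss was there at 2 h, and 1 gene fell further: nascent Ifrd2 was lower at 24 h than at 2 h (log2 change -1.66, SE 0.21, 95% interval -2.15 to -1.17, adjusted p 0.0394), where 0.0560% of genes were called lower. Of the 435 genes called lower at 2 h than in DMSO, 4 were called lower still at 24 h than at 2 h. The 2 h and 24 h libraries entered the choice of the genes, so the p-values are not independent of it. Over all genes edgeR called 10 lower and 6 higher from 2 to 24 h, DESeq2 195 and 229, and edgeR with the replicate number as a block 390 and 572. Without any 1 of the 8 libraries the adjusted p for Ifrd2 lay between 0.0597 and 0.284, with a log2 change of -1.74 to -1.59. For the other genes the interval of the 24 h minus 2 h difference held 0, as for Usp40 (-1.51 to 0.08), Rbm41 (-0.33 to 1.53) and Irf3 (-0.78 to 0.72), except for Ifrd1 (-1.01 to -0.13, adjusted p 0.219). Between 2 and 6 h and between 6 and 24 h none of the 17870 genes was called by edgeR, with 150 lower and 119 higher, and 917 lower and 1005 higher, at an unadjusted p under 0.05. In the same order DESeq2 called 2 and 0, and 90 and 59, and none of the 10 genes was among them. With the replicate number as a block, edgeR called 124 lower and 94 higher between 6 and 24 h, again with none of the 10 genes.

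In steady-state RNA the depleted times did differ for some of the genes. From 24 to 72 h Prmt6 rose by 1.19 on the log2 scale (SE 0.20, adjusted p 0.00479) and Vps50 by 0.87 (SE 0.07, adjusted p 6.13e-04), where 7.53% of the genes tested were called higher. Ifrd1 fell by 1.12 (SE 0.09, adjusted p 4.60e-06), where 6.60% were called lower. Among the 475 genes called lower at 24 h, 9.47% were called higher and 14.9% lower from 24 to 72 h. Ifrd2 (0.74, adjusted p 0.272), Cldnd1 (0.56, 0.912), Pycard (-0.05) and Irf3 (-0.06) were not called. The calls for Prmt6 and Vps50 were lost under DESeq2 (adjusted p 0.196 and 0.0414) and without the second 24 h library (0.0632 and 0.0588), and Prmt6 also without either 72 h library (0.0179 and 0.0176). The 24 h libraries entered the choice of the genes, so these p-values are not independent of it.

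The 24 h loss was compared between assays in 1 fit of TT-seq and RNA-seq libraries of DMSO and 24 h, all of which entered the choice of the genes, so that these values too depend on it. None of the 10 genes was called by edgeR, where 0.0177% of 16990 genes were called lower and 0.0177% higher, and DESeq2 and limma called none of the 10 either. At an unadjusted p under 0.05, the steady-state loss was the larger for 3 genes, Rbm41 (difference of log2 changes -1.98, 95% interval -3.83 to -0.13), Pycard (-1.59, -2.75 to -0.43) and Prmt6 (-0.91, -1.68 to -0.14), and the smaller for Ifrd1 (0.97, 0.37 to 1.57, adjusted p 0.439). Of the 16990 genes, 606 had a lower and 886 a higher log2 change in steady-state than in nascent RNA at that unadjusted p. Ifrd1 passed when replicate numbers were used as a block (0.98, adjusted p 0.0154), where 208 genes were called in that direction, and when no gene was filtered out (1.00, adjusted p 0.00148), where 67 were. The difference was close to 0 for Vps50 (0.0016, -0.48 to 0.49). For Zc4h2, with 1 and 0 counts in TT-seq and 4 and 0 in RNA-seq after 24 h, the comparison had little precision (-0.39, -11.98 to 11.2). TT-seq counts introns as well as exons and RNA-seq exons alone, which differs between the assays for every gene.

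Per kilobase of counted length, the control levels of the genes had a different order in the 2 assays. Nascent CPM per kb in DMSO was 6.48 ± 0.33 (SD, n = 2) for Ifrd2, 3.62 ± 0.65 for Ifrd1, 3.41 ± 0.03 for Prmt6, 1.65 ± 0.31 for Irf3, 1.36 ± 0.24 for Vps50, 1.23 ± 0.18 for Cldnd1, 1.15 ± 0.17 for Pycard, 0.809 ± 0.089 for Usp40, 0.277 ± 0.092 for Rbm41 and 0.153 ± 0.026 for Zc4h2. Ifrd1 and Prmt6 overlapped, as did each neighbouring pair from Irf3 to Pycard. Steady-state CPM per kb was 40.4 ± 1.5 for Ifrd2, 17.8 ± 0.5 for Cldnd1, 15.2 ± 1.2 for Ifrd1, 10.2 ± 0.1 for Pycard, 9.95 ± 0.16 for Irf3, 7.95 ± 0.23 for Vps50, 6.67 ± 0.22 for Prmt6, 5.60 ± 0.61 for Zc4h2, 1.71 ± 0.13 for Usp40 and 1.35 ± 0.26 for Rbm41, and no neighbours in this order overlapped. Usp40 and Rbm41 were thus among the lowest of the 10 in both assays, as well as among the most reduced by depletion.

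The loss of most of the genes was smaller after the RA step than before it. Before RA, all 10 genes were called lower in depleted cells (3.66% of 15915 genes were), and after RA 8 were (7.36%), counts that the choice of the genes fixes. The depletion effect before RA had a median log2 change of -3.78 over the 10 genes and of 0.065 over all genes, and after RA of -1.87 and 0.003. Usp40 showed the greatest change: it was at 23.5 and 22.1 CPM in DMSO and 0.312 and 0.120 in dTAG before RA, and at 37.3 and 37.3 in DMSO and 5.30 and 6.57 in dTAG after RA. The share of the control level left thus went from 0.947% to 15.9%.

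Prmt6 went from 38.6 and 41.8 CPM in DMSO and 5.56 and 4.70 in dTAG to 18.6 and 20.3 in DMSO and 11.3 and 11.0 in dTAG, so that the groups came closer from both sides, and the log2 change of -0.80 after RA was not called. Vps50 went from 110 and 112 CPM in DMSO and 42.2 and 42.9 in dTAG to 49.2 and 45.8 in DMSO and 58.1 and 52.9 in dTAG. After RA, both depleted libraries of Vps50 lay above both controls, and the log2 change of 0.22 was not called. Cldnd1 was higher with RA in both arms, from 33.9 and 32.0 CPM to 54.1 and 52.0 in DMSO and from 4.62 and 5.62 to 23.2 and 26.4 in dTAG, and the share left went from 15.5% to 46.8%. Ifrd2 went from 132 and 157 CPM in DMSO and 5.09 and 3.71 in dTAG to 73.0 and 63.5 in DMSO and 7.63 and 8.33 in dTAG, and its share left from 3.05% to 11.7%.

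Pycard, Zc4h2 and Rbm41 were low in depleted cells before and after RA. Pycard was at 33.0 and 33.0 CPM in DMSO and 1.61 and 1.20 in dTAG before RA, and at 17.5 and 13.6 and 0.826 and 0.791 after it, with 4.25% and 5.19% left. Zc4h2 was at 11.0 and 10.5 CPM in DMSO and 0.104 and 0.120 in dTAG before RA, and at 11.3 and 11.7 and 0.0972 and 0.279 after it. Rbm41 went from 9.87 and 7.91 CPM in DMSO and 0.156 and 0.199 in dTAG to 16.4 and 15.9 and 0.923 and 0.978, which left 2.00% and 5.88%. For these 3 genes, less than 6% of the control level was left in each condition. Irf3 (39.7 and 42.9 CPM against 12.6 and 13.5 before, 22.5 and 23.5 against 11.2 and 10.5 after) and Ifrd1 (80.9 and 78.5 against 30.8 and 27.3, then 66.4 and 66.0 against 37.9 and 34.9) went from 31.6% to 47.2% and from 36.4% to 55.0% of their control level.

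**Figure D3:**
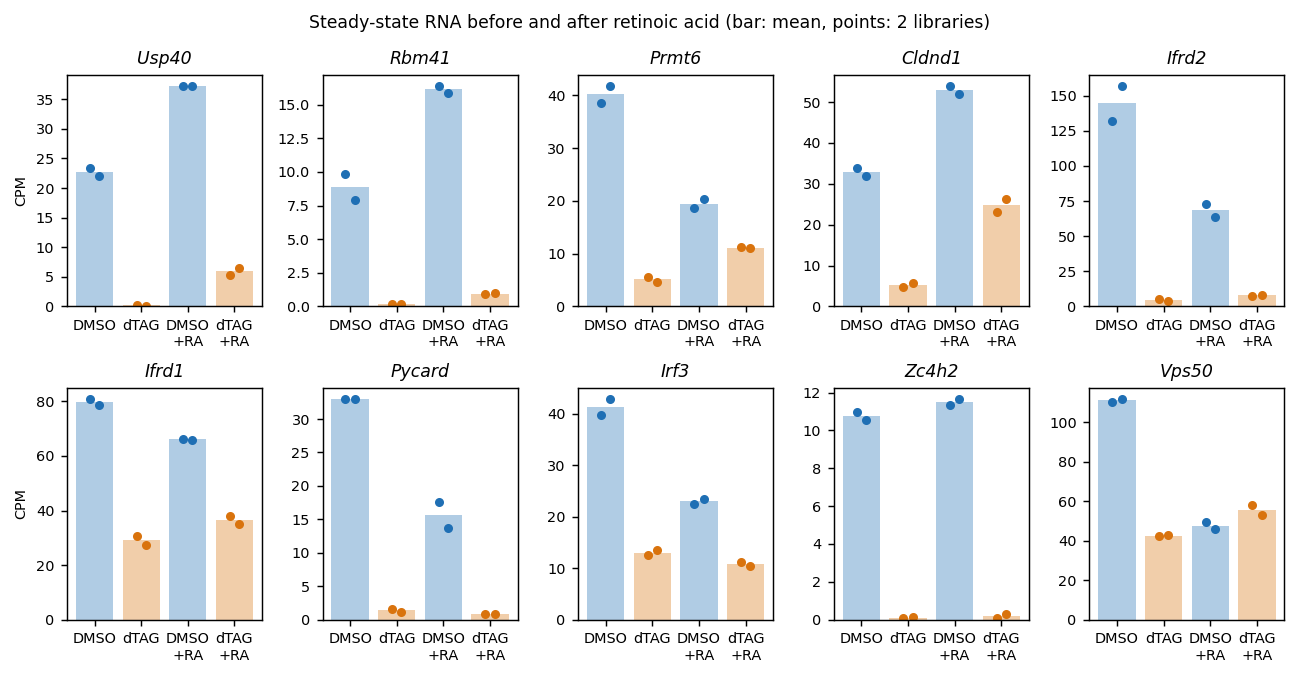
CPM of the 10 genes in the RA experiment, with bars for means and points for the 2 libraries, DMSO in blue and dTAG in orange, without and with RA. Bars start at 0; depleted Usp40, Cldnd1 and Prmt6 are higher with RA, and Pycard and Zc4h2 stay low.

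The difference between the depletion effect after and before RA was tested as an interaction (edgeR, quasi-likelihood). It was called for 8 of the 10 genes, in all 8 with the higher log2 change after RA, where 13.7% of 15915 genes were called in that direction. Among the 583 genes called lower before RA the share was 60.9%, and this is the closer background, since the libraries before RA were among those the genes were chosen on and the p-values are not independent of that choice. The log2 difference was 4.12 for Usp40 (SE 0.35, adjusted p 1.11e-08), 2.18 for Prmt6 (SE 0.17, 4.07e-09), 1.96 for Ifrd2 (SE 0.19, 7.87e-08), 1.60 for Vps50 (SE 0.11, 7.95e-10), 1.58 for Cldnd1 (SE 0.16, 1.08e-07) and 1.50 for Rbm41 (SE 0.50, 0.0200). It was small for Ifrd1 (0.60, SE 0.12, adjusted p 3.88e-04) and Irf3 (0.58, SE 0.15, 0.00413). Pycard (0.30, 95% interval -0.44 to 1.04) and Zc4h2 (0.63, -0.94 to 2.198) were not called, which does not show that their losses were equal. The call for Rbm41 was lost without either depleted library before RA (adjusted p 0.0912 and 0.0722).

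**Figure D4:**
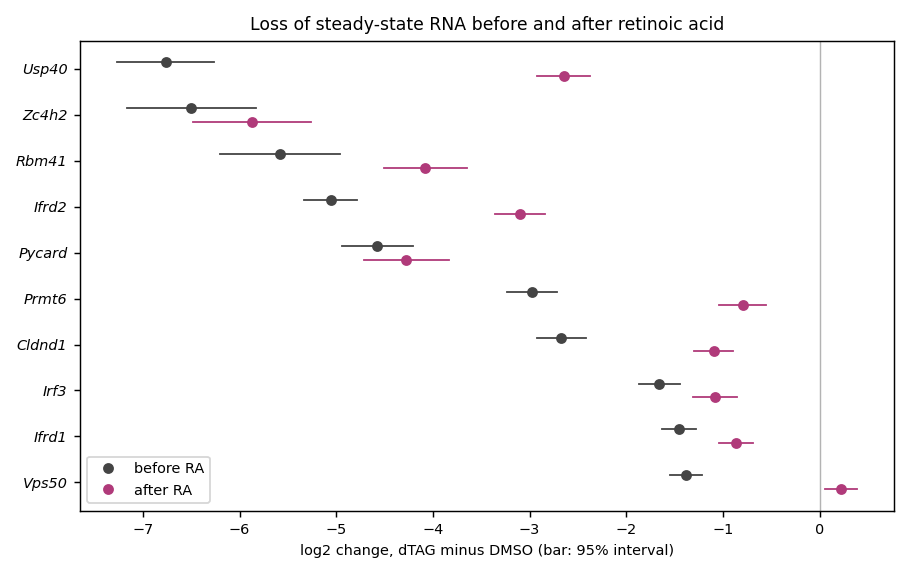
Log2 change of dTAG against DMSO before RA (grey) and after RA (purple) for each gene, with 95% intervals. The intervals before and after RA lie apart for 8 genes, with the higher value after RA, and overlap for Zc4h2 and Pycard.

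The RA response was then read within each treatment. The libraries before RA entered the choice of the genes as well as this comparison, and choosing genes low in dTAG and high in DMSO there favours rises with RA in depleted cells and falls with RA in DMSO, so the p-values are not independent of the choice. In DMSO cells 5 of the 10 genes fell with RA, Vps50 (log2 change -1.22, adjusted p 3.02e-08), Ifrd2 (-1.08, 1.59e-05), Pycard (-1.07, 2.54e-04), Prmt6 (-1.05, 6.90e-05) and Irf3 (-0.85, 0.00419), where 18.1% of genes were called lower and 25.8% higher. Rbm41 (0.86, adjusted p 0.0227), Usp40 (0.71, 0.0898), Cldnd1 (0.69, 0.102), Zc4h2 (0.10) and Ifrd1 (-0.27) were not called. In depleted cells 4 genes rose with RA, Usp40 (4.83, 2.96e-11), Rbm41 (2.36, 5.61e-04), Cldnd1 (2.26, 1.94e-11) and Prmt6 (1.13, 1.84e-04), where 25.0% were called higher, and Ifrd2 (0.88, 0.0271) was not called. Of the 583 genes called lower by depletion before RA, 39.8% rose with RA in depleted cells. Prmt6 moved in opposite directions in the 2 treatments. The scaling matters here: scaled by library size without TMM, the median RA response over all genes shifts from 0.033 to 0.352 in DMSO and from 0.002 to 0.394 in dTAG, and then 1 of the 10 genes was called lower and 3 higher in DMSO. In dTAG 6 of the 10 genes were then called higher, with Ifrd2 (1.28, adjusted p 1.39e-04) and Vps50 (0.78, 0.00613) added, among 5447 of 15915 genes against 3980 with TMM. The direction of these 5 falls was the same under that scaling. The call for Irf3 in DMSO was lost under DESeq2 (adjusted p 0.0783), without the second DMSO library and without either library with RA, and that for Pycard without the second DMSO library with RA (0.0167), where 3 genes were called. The call for Prmt6 in dTAG was lost without the second depleted library before RA (0.0102).

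Genes that share a promoter with the 10 were read in the same fits; they were not used in the choice. Bcl2l12, a gene of the Bcl2 family, starts 103 bp from Irf3 on the opposite strand, and both genes lie under 1 peak. Its nascent log2 change was 0.23 (95% interval -0.35 to 0.81) at 2 h, 0.04 at 6 h and -0.40 at 24 h (-0.99 to 0.19), and its steady-state change was -0.25, -0.37 and -0.56 at 24, 48 and 72 h, and none was called. Irf3 had -1.55 in nascent RNA at 2 h. With RA, Bcl2l12 fell in DMSO cells (-1.003, adjusted p 5.97e-04) and in depleted cells (-1.27, 4.88e-06), the former not under DESeq2 (0.0148), with library size alone (0.147) or without the first DMSO library with RA (0.0343). C130013H08Rik, an antisense RNA 983 bp from the start of Prmt6, was not called in nascent RNA (-0.37, -0.67 and 0.03), except at 6 h with the replicate number as a block (-0.68, adjusted p 0.0201), while its depletion effect was 1.73 higher after than before RA (SE 0.58, adjusted p 0.0206), the same direction as for Prmt6. That call was lost under DESeq2 (adjusted p 0.116) and without the first DMSO library before RA (0.162), the first with RA (0.0566) or the second depleted library before RA (0.0924). Gm16343, 217 bp from Ifrd2, was at -0.47, -0.99 and -1.10 in nascent RNA with no call (adjusted p 0.680, 0.222 and 0.139). Gm7008, 431 bp from the Ifrd1 start and inside that gene, had too few counts to test: 30 and 19 in DMSO, 3 and 9 at 2 h, 2 and 4 at 6 h, then 2 and 4 at 24 h of TT-seq. Hepacam2, 84 bp from Vps50, had 6 and 6 counts in DMSO. Irf3, Prmt6, Ifrd1 and Pycard overlap genes on the other strand, as do Usp40 (Dgkd, 62 bp) and Rbm41 (Gm15011, 1480 bp). TT-seq reads were separated by strand before counting, per the study's methods. For RNA-seq, which used a stranded kit, the strand setting of the counts is not given in the sources used here.

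Other genes of the same families were read in the same fits, where 2.43% of all genes were called lower in nascent RNA at 2 h and 4.09% at 24 h, and 3.41%, 7.71% and 12.0% in steady-state RNA at 24, 48 and 72 h. In steady-state RNA 2.32%, 10.5% and 13.7% were called higher at these times, and after RA 7.36% were called lower and 9.1% higher in depleted cells. At such shares, a count of 0 or 1 in the 2 families that follow is near the background, and 2 of 34 higher at 72 h is below it. Of 34 other ubiquitin-specific proteases tested, none was called lower by edgeR in nascent RNA at 2 h, where DESeq2 called 1 and the replicate block 2. The interval lay below 0 for 2 of them and above 0 for 3. In steady-state RNA at 24 h none was called lower by edgeR or DESeq2, with an interval below 0 for 12 and above 0 for 6. Usp11 was called higher in steady-state RNA (log2 changes 1.55, 2.66 and 2.93 at 24, 48 and 72 h), as was Usp25 at 72 h (1.21). Usp46 was called lower at 48 and 72 h (-0.80 and -1.01), and Usp10 (-0.90) and Usp28 (-1.26) at 72 h. Of 8 other arginine methyltransferases none was called by edgeR or DESeq2 in nascent RNA at 2 h, although 3 had an interval below 0 and the replicate block called 1 lower. Prmt5 was called lower at 24 h (-0.51, adjusted p 0.0431). In steady-state RNA Prmt2 rose (1.32, 2.36 and 3.31), Prmt8 was called higher at 48 h (1.64), and Carm1 (-0.93 and -1.30) and Prmt7 (-0.85 and -1.10) fell at 48 and 72 h. Prmt1, Prmt7 and Carm1 were lower in depleted cells after RA (-0.95, -0.80 and -1.39), a comparison in which Prmt6 was not called.

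The minor spliceosome, to which Rbm41 belongs, held a second gene with a large loss. Of 11 other members tested, 2 were called lower in nascent RNA at 2 h and 1 was called lower at 24 h in each assay, and none higher, beside 2.43% of all genes lower at 2 h and 4.09% and 3.41% at 24 h of TT-seq and RNA-seq. The gene was Zmat5, a zinc finger protein of the same particle, with nascent log2 changes of -1.93, -2.07 and -3.23, steady-state changes of -3.73, -3.81 and -3.85, and -3.49 before and -1.66 after RA. Snrnp48 was at -0.68 in nascent RNA at 2 h. The median over the 11 was -0.30 in nascent RNA at 2 h beside 0.006 over all genes.

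In the GARP and EARP tethers, which share subunits with Vps50, 1 of 5 other members was called lower in nascent RNA at 2 h: Vps53 (-0.83, -0.73 and -0.53 at the 3 times). Vps54 was called lower in steady-state RNA (-0.95, -1.29 and -1.28). Of 4 inflammasome genes tested of 11 listed and of 9 tested in the pathway that leads to Irf3, none was called by edgeR or DESeq2 in nascent RNA at 2 or 24 h, and no interval left out 0. Cgas rose in steady-state RNA at 48 and 72 h (1.26 and 1.54), Gsdmd and Mavs fell at 72 h (-1.29 and -0.86), and Nlrc4 and Ikbke were higher in depleted cells after RA (1.94 and 1.70), where 9.1% of all genes were called higher. Of 5 claudins in RNA-seq, Cldn3 (-2.53), Cldn6 (-1.38) and Cldn7 (-1.01) were called lower at 72 h, Cldn3 also at 48 h (-1.29), and none of the 5 at 24 h by edgeR or DESeq2, where 3 had an interval below 0. Of 3 ribosome factors listed with Ifrd2 and Ifrd1, Ccdc124 (-0.76) and Serbp1 (-0.92) were called lower at 72 h only among the 3 times. Rnf220, listed with Zc4h2, was not called in any depletion comparison. Its interval lay below 0 in nascent RNA at 2, 6 and 24 h, and above 0 in steady-state RNA at 48 and 72 h and after RA.

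The genes most like each of the 10 across the 24 RNA libraries were found by the root mean square difference of log2 CPM, centred within each table, among 12811 genes that passed the filter in all 3 tables. Vps50 was closest to Ctdp1 (0.177) and Fam53c (0.192), Ifrd1 to Ciao2a (0.198) and Bcorl1 (0.241), Irf3 to Asxl1 and Mrps26 (0.207 each), Cldnd1 to Capn15 (0.227) and Letm1 (0.268), and Prmt6 to Fbxo46 (0.355) and Letm1 (0.397). Ifrd2 was closest to 4933404O12Rik (0.431) and Bckdk (0.444), and Pycard to Bckdk (0.513) and Ifrd2 (0.528). Usp40, Rbm41 and Zc4h2 were not in this pool themselves, and the filter leaves out other genes reduced to as few counts, so a close match could hardly be found in it: Usp40 was 1.083 from 4933404O12Rik and 1.089 from Zfp862-ps, Rbm41 was 0.935 from the first of these and 0.953 from Zfp358, and Zc4h2 was 0.993 from Mpi and 1.082 from Bckdk. The profiles include the losses on which the 10 genes were chosen.

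4C was available for viewpoints at Prmt6 (chr3:110250887-110251179), at Rbm41 (chrX:139997017-139998029) and at a fragment labelled Cldn1 that lies inside Cldnd1 (chr16:58728310-58728567) and is called the Cldnd1 viewpoint here. Values are RPM (reads scaled to the total of the library) summed over fragments, and the exact permutation test of 2 against 2 libraries cannot go below a p of 0.333. From 10 to 100 kb on either side, Prmt6 had 87248 and 68149 RPM in DMSO and 86707 and 86403 after 6 h of depletion, with overlapping groups (ratio 1.11, p 1.0). Rbm41 had 169495 and 156275 against 161669 and 151013, overlapping as well (ratio 0.960, p 0.667). Cldnd1 had 113092 and 115100 against 101337 and 104334, without overlap (ratio 0.901, p 0.333, the smallest possible). Prmt6 and Rbm41 had lost most nascent RNA by that time, and no difference in their contacts was detectable with 2 libraries a group, the shallowest of which had 53823 reads.

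As a test chosen after seeing the data, reads were recovered from the RPM values and fitted in 20 kb bins with edgeR. No bin was called at Prmt6 (0.00% of 50, 1 at an unadjusted p under 0.05) or at Rbm41 (0.00%, 3 unadjusted). At the Cldnd1 viewpoint 1 bin of 50 was called (2.00%): the stretch 40 to 60 kb towards lower coordinates, with 26485 and 27912 RPM in DMSO and 20456 and 20591 after depletion (log2 change -0.41, adjusted p 1.21e-04). In bins of 10 kb 5 of 98 were called and in bins of 50 kb 3 of 20, all lower and all on that side, and some lay outside the stretch, as from -290 to -280 kb (-0.69, adjusted p 0.00955) and from -350 to -300 kb (-0.22, 0.0405). This stretch holds the viewpoint at Cpox, a gene of haem synthesis, 56.1 kb away. Read back from the Cpox viewpoint, contacts within 10 kb of the Cldnd1 viewpoint were 20046 and 18034 RPM in DMSO and 15649 and 13952 after depletion (ratio 0.777, exact permutation p 0.333, the smallest possible). No 20 kb bin was called from the Cpox viewpoint (5 unadjusted, lowest adjusted p 0.334), and 2 bins of 50 kb were, among them the bin 50 to 100 kb away on the side of Cldnd1 (-0.46, adjusted p 0.0116).

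**Figure D5:**
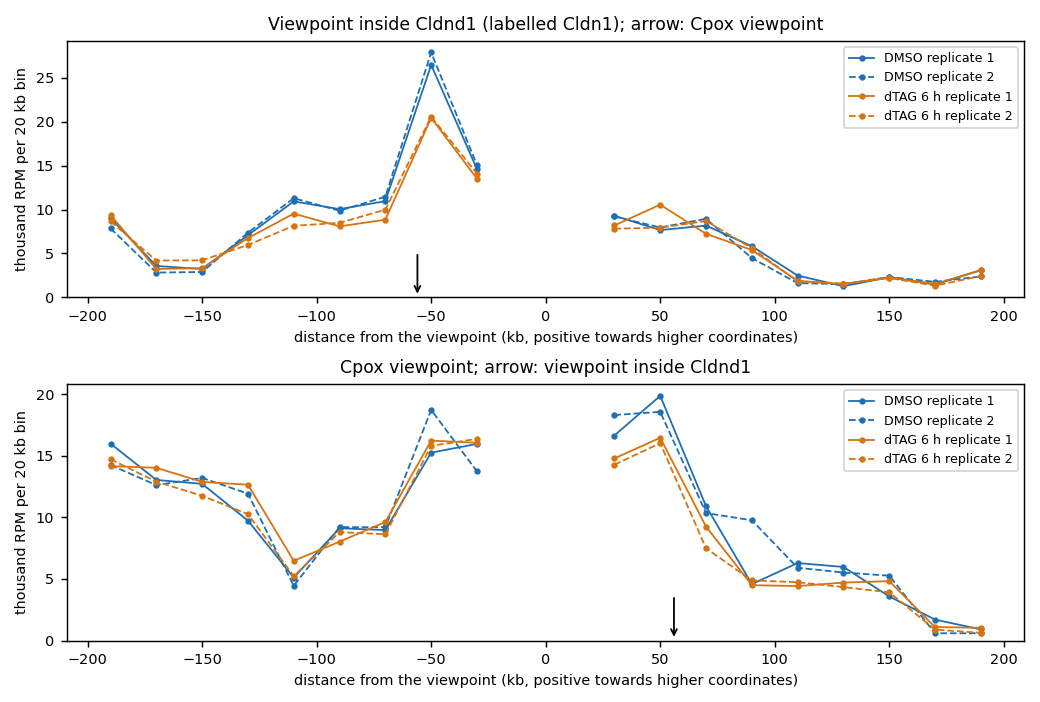
4C contacts per 20 kb bin (RPM, axis in units of 1000) against distance in kb from the viewpoint inside Cldnd1 (top) and from the Cpox viewpoint (bottom), with 1 line per library, DMSO blue and 6 h dTAG orange. The arrow marks the other viewpoint; around it, both DMSO libraries lie above both depleted libraries in each panel.

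Across the series, library totals ran from 9721568 to 16532077 counts in TT-seq, 10261851 to 15316700 in the RNA-seq time course and 13890761 to 27089033 in the RA experiment. The Zfp143 transcript, which the degron does not target, was at 71.3 and 74.4 CPM in nascent RNA in DMSO and 162 and 165 at 2 h, and its RNA was called higher in every depletion comparison, so it does not check the loss of the protein. The summed CPM of 8 pluripotency markers was 6520 to 6725 in RNA-seq DMSO libraries and 4216 to 4265 at 72 h, and 1365 to 1947 in DMSO cells with RA and 1447 to 1739 in depleted cells with RA. By gene, depletion after RA was called for 3 of the 8 as higher, with Esrrb at 2.44, and for 1 as lower (median 0.63), and the depletion effect was called higher after than before RA for 6 (median 0.79). The sum of 5 RA response genes was 1257 to 1386 CPM with RA in DMSO and 1345 to 1391 in dTAG, and under 17 in every library without RA. By gene, 3 of the 5 were called lower in depleted cells after RA, Hoxb1 (-2.53), Cyp26a1 (-2.18) and Rarb (-0.95), with a median of -0.95. The part these changes have in the RA results was not tested. The sum of 4 primitive endoderm markers was 6.06 to 6.49 CPM in DMSO and 14.9 to 16.1 at 48 h of RNA-seq, and 25.6 to 27.6 in DMSO with RA and 48.6 to 51.6 in dTAG with RA. The sum of 4 neural markers was lower in depleted cells in RNA-seq, at 126 to 134 CPM in DMSO and 69.3 to 69.7 at 24 h of RNA-seq, 180 to 191 and 95.6 to 100.3 before RA, and 92.8 to 105 and 58.4 to 60.6 with RA. Its genes differed: at 24 h Tubb3 was called lower (-1.20) and Sox1 higher (1.39), with a median of 0.53 over the 3 tested, and in TT-seq the sum was 47.6 to 62.3 in DMSO and 57.4 to 95.4 at 2 h. The 4 fibroblast markers were at 6.09 to 8.66 CPM in DMSO with RA and 25.6 to 25.8 in dTAG with RA. The sum of 4 trophoblast markers was 16.0 to 16.2 CPM in DMSO and 0.323 to 0.456 at 24 h of RNA-seq. In the RA experiment it was 1.15 to 1.21 in DMSO and 0.364 to 0.518 in dTAG before RA, and 4.03 to 4.46 and 4.14 to 4.52 with RA. The 1 trophoblast gene tested there had an interval below 0 before and after RA, and above 0 for the difference between them. The part of these marker changes in the losses and in their smaller size after RA was not tested.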

How the data were processed

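TT-seq and RNA-seq libraries of the E14TG2a ZFP143-FKBP line were used as gene counts that the authors made from their aligned reads and deposited without normalization, over whole genes for TT-seq and over exons for RNA-seq. Peak lists were deposited per factor with the fold enrichment over input and the −log10 q that the authors' peak caller gave. The 4C values were deposited as RPM per restriction fragment, normalized by the authors, and 100% of them were whole reads within 0.01 once the value of 1 read was found. The degron design, the peak calling and the RA protocol were taken from the study's methods, as was the separation of TT-seq reads by strand before counting, while the strand setting of the RNA-seq counts is not given in the sources used here.

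Counts were fitted with edgeR 4.0.16 in R 4.3.3 (TMM, quasi-likelihood, one fit per table of 8 libraries with a mean per group, and one joint fit for the 24 h loss in both assays). Genes were kept with over 10 counts in at least 4 libraries. TT-seq times, the interaction and the joint fit were called at a Benjamini-Hochberg adjusted p under 0.05 and a log2 change beyond 0.5, and RNA-seq contrasts and RA responses with glmTreat against a fold of 1.5 at an adjusted p under 0.01. P-values were adjusted over all genes tested. Alternatives were DESeq2 1.42.0, its size factors, library size alone, no filter, a replicate block, limma 3.58.1 for the joint fit, and leaving out each library. The fits were checked on simulated counts, with the same spread set for every table and changes placed only in genes with many counts. That check does not cover the spread of each table or genes with few counts, such as depleted Usp40, Rbm41 and Zc4h2. Peaks were given to a gene by GENCODE vM21 starts, from 2000 bp before to 1000 bp after. P-values measure the spread between 2 replicates a group. Replicate numbers carry no batch in the labels and each contrast has 2 pairs, so they were not used to pair libraries in the main fits. In TT-seq the differences between same-group replicates did correlate between groups (0.187 to 0.616), which only the replicate block allows for.

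The genes, lists and tests were chosen with earlier results of these data known. Named genes are the 10 genes, genes sharing their promoters, list genes called in a comparison described, the 2 nearest genes by profile, Zfp143 and the markers. Gm45205 was added after its values were seen. ChIP-seq and Hi-C samples beyond the peak lists and the other 4C viewpoints were not used here.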

Additional observations from a re-analysis of the deposited data

Results flagged for a closer look

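Differences between conditions called in a test of the difference are listed here as log2 values. For the 10 genes the tests use libraries on which the genes were chosen, so their p-values are not independent of the choice. The depletion effect differed before and after RA for Usp40 (4.12), Prmt6 (2.18), Ifrd2 (1.96), Vps50 (1.60), Cldnd1 (1.58), Rbm41 (1.50), Ifrd1 (0.60) and Irf3 (0.58), each higher after RA, which for Vps50 left no loss (log2 change 0.22), and for C130013H08Rik (1.73), the antisense neighbour of Prmt6. Depleted cells at 72 h and 24 h differed in steady-state RNA for Prmt6 (1.19), Vps50 (0.87) and Ifrd1 (-1.12). Depleted cells at 24 h and 2 h differed in nascent RNA for Ifrd2 (-1.66). The calls for C130013H08Rik and for Prmt6 and Vps50 at 72 h were lost under DESeq2, and those 3, Rbm41 and Ifrd2 also lost theirs when a single library was left out. Groups of 2 libraries were too small for a check of single outlying libraries.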

How the results depend on the processing

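No value of the 10 genes, their neighbours or the 4C sums changed direction in a call under the alternatives tried. Without a filter on low counts, 2 genes were called lower in nascent RNA from 6 to 24 h (0 with the filter) and 2 from 2 to 24 h (1), 10 were called lower at 48 h of RNA-seq (6), and 1 was called with the smaller steady-state loss at 24 h (0). Under DESeq2, 0 genes were called higher from 24 to 72 h (2). With library size alone, 1 gene was called lower and 3 higher with RA in DMSO (5 and 0). With the replicate number as a block, 1 gene, Ifrd1, was called with the smaller steady-state loss at 24 h (0 without it), and over all genes 390 were called lower and 572 higher in nascent RNA from 2 to 24 h (10 and 6). The difference of replicate 1 minus replicate 2 was taken per gene within each group and correlated between groups. The correlation was 0.187 to 0.616 in TT-seq, -0.0538 to 0.0564 in RNA-seq and -0.0704 to 0.103 in the RA experiment. These are correlations of differences and not of the libraries themselves. Leaving out 1 library at a time, the genes called lower ranged from 3 to 9 at 2 h and from 3 to 9 at 6 h of TT-seq (9), 0 to 0 from 2 to 24 h (1), and 3 to 5 with RA in DMSO (5), and those called higher from 0 to 2 from 24 to 72 h of RNA-seq (2) and from 0 to 1 with RA in DMSO (0). The lone library left is then assumed to vary like the others. Fewer libraries leave less to estimate the spread from, and the cause of the other shifts was not tested. Depth limited Usp40, Rbm41 and Zc4h2 once depleted, where a group held few counts, and 2 libraries a group limited the 4C tests.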

Other observations

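Gm45205, a short gene model of unknown coding status on the strand opposite to Pycard, overlaps the start of Pycard by 599 bp. It was picked after its values were seen. In TT-seq it had 88 and 110 counts in DMSO, 259 and 202 at 2 h, 326 and 169 at 6 h, then 215 and 158 at 24 h. Every depleted library lay above both DMSO libraries in counts, while Pycard lay below them. The log2 changes of 0.90, 1.17 and 0.92 were not called by edgeR (adjusted p 0.427, 0.167 and 0.214).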
